A study of Drosophila melanogaster with 2 samples.

Results

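The intergenic summits of ATbp binding are the 921 summits, of the 5921 in the reproducible (IDR thresholded) peak list on dm6, that lay inside no annotated gene and more than 500 bp from every annotated transcription start site (TSS). They made up 15.6% of the list, with a Wilson 95% interval of 14.7 to 16.5%. Another 2051 summits lay within 500 bp of a TSS, and 2949 lay in genes farther from any TSS. A summit is the position of greatest signal that the authors gave for a peak, genes were those of Ensembl with transposable elements left out, and the choice used positions only, not signal. Intervals on shares, here and throughout, cover counting error only, because the summits of 1 experiment are not replicates of each other. No difference between classes of summits was tested.

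The experiment was a ChIP-seq of 2 biological replicates, which form 1 group. Both came from a stable transgenic Drosophila melanogaster line in which ATbp carries green fluorescent protein (GFP) at its C-terminus, and both were sampled as whole embryos of pooled sexes aged 0 to 14 h. Chromatin was sonicated to 200 to 800 bp and precipitated with an antibody against GFP, so the tagged protein in 1 line stands for ATbp, and cell types of all the ages are mixed. Each replicate gave a relaxed list of 30000 peaks, as did the pooled alignments. Since the lists give signal and not reads, sequencing depth is unknown, and no control library was analysed here.

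ATbp is a zinc finger protein that takes its name from an affinity for DNA rich in A and T. DNA between genes in the fly holds enhancers, which act on promoters at a distance, insulators, which are bound by proteins such as CTCF and Su(Hw), and response elements of the Polycomb and trithorax groups. Developmental regulators, many of them homeobox genes, are known for long stretches of such DNA beside them. Where a protein binds between genes does not by itself say which flanking gene it acts on.

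The DNA under the strongest intergenic summits is shown first, because ATbp is named for DNA rich in A and T. The reference sequence of 9 of the 12 strongest, 50 bp to either side of the summit, was read from the RefSeq copy of the dm6 genome, plus strand, 5′ to 3′. Capitals mark unbroken runs of at least 8 bases that are A or T. The windows beside jp, tara and Cyp9f2 hold between 1 and 4 such runs, while those between C15 and sp3, between CG43131 and RabGGTa and between lncRNA:CR45641 and lncRNA:CR45643 hold none. Such a run was in 7 of the 12 strongest windows and in 73.1% of all 921. It was in 56.6% of windows of the same length that tile the DNA where an intergenic summit could fall. The runs are thus not particular to the strongest summits.
jp and lncRNA:CR44149, chr2L:9567468-9567568: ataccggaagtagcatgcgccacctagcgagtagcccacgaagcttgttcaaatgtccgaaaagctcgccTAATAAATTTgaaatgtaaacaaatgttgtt
lncRNA:CR45641 and lncRNA:CR45643, chr3R:16222438-16222538: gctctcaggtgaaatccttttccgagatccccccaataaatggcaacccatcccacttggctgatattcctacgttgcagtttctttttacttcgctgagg
COX7AL2 and CG31668, chr2L:2202372-2202472: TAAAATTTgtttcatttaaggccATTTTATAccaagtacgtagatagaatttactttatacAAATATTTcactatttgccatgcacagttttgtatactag
lncRNA:CR45695 and chinmo, chr2L:1648748-1648848: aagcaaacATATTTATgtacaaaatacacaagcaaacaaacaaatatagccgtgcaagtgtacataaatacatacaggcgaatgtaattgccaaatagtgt
Sol1 and Cyp9f2, chr3R:12403085-12403185: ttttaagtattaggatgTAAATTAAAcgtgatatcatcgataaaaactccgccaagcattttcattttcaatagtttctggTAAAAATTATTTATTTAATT
C15 and sp3, chr3R:21520298-21520398: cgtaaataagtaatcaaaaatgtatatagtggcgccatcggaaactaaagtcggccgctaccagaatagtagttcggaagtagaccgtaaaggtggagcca
Asator and zfh2, chr4:497848-497948: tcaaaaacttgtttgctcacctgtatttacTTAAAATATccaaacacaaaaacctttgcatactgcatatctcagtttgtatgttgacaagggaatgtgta
CG43131 and RabGGTa, chr3R:5113228-5113328: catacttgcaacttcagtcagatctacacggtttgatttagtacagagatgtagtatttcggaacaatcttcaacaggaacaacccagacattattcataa
lncRNA:CR45643 and tara, chr3R:16224467-16224567: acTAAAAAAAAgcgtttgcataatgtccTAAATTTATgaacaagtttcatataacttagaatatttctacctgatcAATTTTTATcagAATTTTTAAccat

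A pair of the 921 windows held GGTCACACT, the sequence of promoter Motif 1 bound by the protein M1BP, on either strand. The eleventh strongest summit, between slp1 and slp2, held 2 copies in 1 orientation, as the pair of capital stretches shows, 35 bases from the start of one copy to the start of the next. The other, beside the isoleucine tRNA gene tRNA:Ile-TAT-1-2, held 1 copy on the minus strand, seen here as its reverse complement AGTGTGACC at the edge of the window.
slp1 and slp2, chr2L:3832477-3832577: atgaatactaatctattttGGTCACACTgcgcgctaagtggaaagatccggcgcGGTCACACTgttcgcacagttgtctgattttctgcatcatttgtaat
tRNA:Ile-TAT-1-2 and CG13898, chr3L:775122-775222: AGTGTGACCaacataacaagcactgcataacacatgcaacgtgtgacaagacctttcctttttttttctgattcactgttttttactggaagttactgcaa

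The core of the CTCF motif, searched as AGNNGGCGC on both strands, was in 12 of the 921 windows. It is printed for 9 of them as 41 bp centred on the core, on the strand that carries it, with the core in capitals. Of these 9 cores, 5 read AGGTGGCGC and 2 read AGAGGGCGC.
jp and lncRNA:CR44149, chr2L:9567468-9567508 (minus strand): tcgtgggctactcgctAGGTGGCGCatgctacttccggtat
soti and cv-c, chr3R:14391370-14391410 (minus strand): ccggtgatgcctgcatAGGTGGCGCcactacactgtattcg
lncRNA:cherub and lncRNA:CR31386, chr3R:11269160-11269200 (minus strand): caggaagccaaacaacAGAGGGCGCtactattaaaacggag
CR31958 and bark, chr2L:3786383-3786423 (plus strand): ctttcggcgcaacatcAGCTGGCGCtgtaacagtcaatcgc
ImpL2 and asRNA:CR45738, chr3L:4239608-4239648 (minus strand): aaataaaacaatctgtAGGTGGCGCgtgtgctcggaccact
lncRNA:CR45251 and CG6163, chr3L:11358855-11358895 (plus strand): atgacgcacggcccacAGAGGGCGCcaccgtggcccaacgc
lncRNA:CR44522 and CG43168, chr3L:6264589-6264629 (minus strand): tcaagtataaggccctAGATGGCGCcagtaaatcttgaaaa
Ugt301D1 and CG10211, chr2L:18516559-18516599 (minus strand): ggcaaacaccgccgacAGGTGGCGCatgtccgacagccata
lncRNA:CR45624 and sbr, chrX:10832548-10832588 (minus strand): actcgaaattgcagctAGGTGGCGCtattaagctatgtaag

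The authors' signal of the intergenic summits ran from 128.5 to 3148 with a median of 210.4. The median was 240.8 for summits within 500 bp of a TSS, 215.0 for those in genes and 220.5 for the whole list. Intergenic summits made up 10 of the 100 strongest in the list, 10.4% of the 500 strongest (8.02 to 13.4%) and 17.0% of those ranked past 4000 (15.4 to 18.7%). Their share was thus smallest at the top of the list, where summits within 500 bp of a TSS made up 53.0% of the 100 strongest. Of the 6756 intergenic peaks of the pooled relaxed list 13.6% were in the IDR list, against 19.7% of all 30000 peaks in it.

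**Figure D1:**
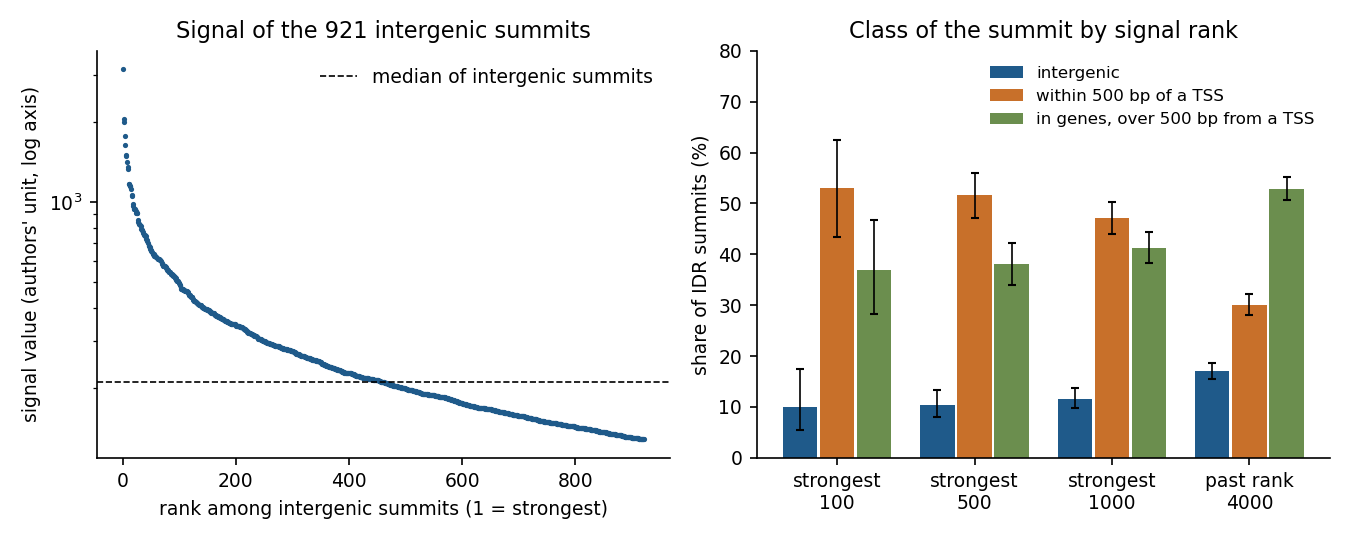
Left, the authors' signal value (log axis) of each of the 921 intergenic summits against its rank, with the median of 210.4 as a dashed line. Right, the share of each class of summit among IDR summits of different ranks, with Wilson 95% intervals; intergenic summits hold 10 of the strongest 100 and 17.0% of ranks past 4000.

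The strongest intergenic summit was on 2R at 13035334, with a signal of 3148.3 that ranked 7 in the whole list. It ranked 8 in replicate 1, with a signal of 1518.0, and 6 in replicate 2, with a signal of 1627.1. It lay 27.42 kb past the end of Su(z)2, a Polycomb group gene, and 9.361 kb from CG13323, in a gap where both genes end. No TSS was within 11.92 kb of it. The DNA between CG13321 and Psc, the Polycomb group gene beside Su(z)2, held 3 further intergenic summits with signals up to 938.6.

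The second strongest, on 2L at 9567518 with a signal of 2043.3, lay between jp, which encodes junctophilin, and the noncoding gene lncRNA:CR44149. Its signal was 1173.1 in replicate 1 and 868.7 in replicate 2. It is the strongest of the summits with a CTCF core, which lies 30 bp to the left of the summit. The third, on 3R at 16222488 (signal 1993.0), and the twelfth, at 16224517 (signal 1168.6), lay 2.029 kb apart on either side of lncRNA:CR45643, and the twelfth was 1.134 kb from tara, a gene of the trithorax group.

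The fourth strongest, on 2L at 2202422, beside COX7AL2, named for a cytochrome c oxidase subunit, had a signal of 1770.4. The fifth, on 2R at 22802969 (signal 1630.3), sat in a 1.340 kb gap between the ends of blw, which encodes a subunit of mitochondrial ATP synthase, and CycB, the gene of cyclin B. The seventh, on 3R at 12403135 (signal 1485.0), sat in a gap of only 0.437 kb between the ends of Sol1 and the cytochrome P450 gene Cyp9f2. Its nearest TSS was that of DNAlig3, a DNA ligase gene, 1.296 kb away, and its window held an A/T run of 20 bases.

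The sixth, on 2L at 1648798 (signal 1506.7), lay between lncRNA:CR45695 and chinmo, a BTB zinc finger gene of neuronal development. The eighth, on 3R at 21520348 (signal 1417.2), lay between the homeobox gene C15 and sp3, with its nearest TSS, of sp3, 0.580 kb away. The ninth, on chromosome 4 at 497898 (signal 1351.9), lay between Asator and zfh2, a gene of a zinc finger homeodomain protein. The eleventh, on 2L at 3832527 (signal 1169.9), lay between slp1 and slp2, the paired forkhead genes of segmentation. The tenth, on 3R at 5113278 (signal 1332.7), lay between CG43131 and RabGGTa, which encodes a subunit of the enzyme that prenylates Rab proteins. All 12 had a peak in both replicates, and the lowest replicate rank among them was 186, that of the zfh2 summit in replicate 2, where its rank in replicate 1 was 57.

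A peak of the relaxed lists lay within 100 bp of the summit in both replicates for 871 of the 921, or 94.6%, where the share over all IDR summits was 92.6%. It was found in replicate 1 only for 28, in replicate 2 only for 21 and in neither for 1. The share with both was 97.4% for the 231 strongest and 90.0% for the 230 weakest. Of the 921, 747 were among the 5921 strongest peaks of replicate 1 and 807 among those of replicate 2, or 81.1% and 87.6%. For summits within 500 bp of a TSS the shares were 85.0% and 81.7%, in the other order, and over all IDR summits they were 83.7% and 83.8%. One by one, 333 of the 871 intergenic summits with both, or 38.2%, ranked better in replicate 1. That share was not counted over all IDR summits, so it is not shown to be particular to intergenic ones. Across the 871, Spearman's rho between the ranks was 0.663 and Pearson's r between the log10 signals was 0.736; the points share 1 caller and were chosen for signal in the pooled libraries, so these are descriptions.

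**Figure D2:**
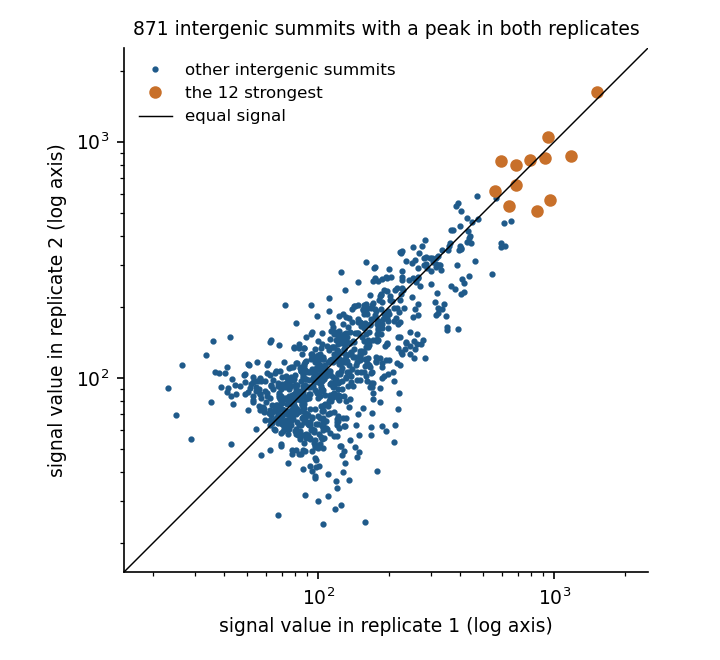
The authors' signal in replicate 1 against replicate 2, both on log axes, for the 871 intergenic summits with a peak in both; the line marks equal signal. The 12 strongest lie at the upper right on both sides of the line, with the sixth at 959.8 and 565.4 the farthest of them from it in proportion.

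The summits with the widest gap between replicate ranks were weak in one list. The summit on 2L at 1440389, between CG43401 and CG43402, ranked 27407 in replicate 1 and 3620 in replicate 2. Those at 3573566, between lncRNA:CR44747 and lncRNA:CR43822, and at 1649657, beside chinmo, both on 2L, also ranked far better in replicate 2, at 2669 and 4923 against 23187 and 25020. The reverse held for 1643674 on 2L, between lncRNA:CR44603 and lncRNA:CR45695, ranked 2048 in replicate 1 and 20168 in replicate 2. It also held for 11419611 on 3L, between lncRNA:CR44363 and CG7560, ranked 3652 and 20788. Signals of these 5 ran from 137.3 to 283.4.

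The median distance of an intergenic summit from the nearest TSS was 2.881 kb, with quartiles of 1.379 and 6.005 kb, and the farthest lay 37.22 kb away. The nearest TSS belonged to a gene flanking the gap in 97.2%. Just within the margin of 500 bp, and so left out, were gene-free summits 487 bp from C901, 489 bp from CG10479 and 500 bp from lncRNA:CR43648. Their signals were 166.0, 1045.4 and 170.5. Just beyond it, and so kept, were summits 504 bp from lncRNA:CR44587, 506 bp from lncRNA:CR44828 and 506 bp from CrebA, a bZIP transcription factor gene. Their signals were 137.3, 383.6 and 225.3. In all, 853 of 1774 gene-free summits, or 48.1%, fell within the margin.

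The DNA in which an intergenic summit could fall, in no gene and over 500 bp from a TSS, with unsequenced bases left out, came to 36.26 Mb or 27.1% of the 6 main chromosomes. It held 25.4 summits per Mb, with an exact Poisson 95% interval of 23.8 to 27.1, against 113 per Mb within 500 bp of a TSS and 37.2 per Mb in the rest of the genes. That mean covers unlike gaps. Gaps over 50 kb took up 25.6% of the eligible DNA and held 3.77 per Mb (2.62 to 5.24). Gaps of 20 to 50 kb held 20.8 per Mb, and gaps of 2 to 5 kb 58.8. As many of the strongest peaks taken from 1 replicate alone gave 859 intergenic summits or 23.7 per Mb in replicate 1, and 1009 or 27.8 per Mb in replicate 2.

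Density fell with distance from the TSS over the whole range. It was 56.4 summits per Mb (48.0 to 65.9) between 0.5 and 1 kb, 32.4 (28.8 to 36.4) between 2 and 5 kb, and 17.8 (14.3 to 21.9) between 10 and 20 kb. Between 20 and 50 kb it was 6.92 (4.48 to 10.2), from 25 summits. Replicate 1 alone gave 55.3 per Mb in the nearest of these bins and 5.81 in the last, and replicate 2 alone gave 61.0 and 7.20. The 4.131 Mb over 50 kb from a TSS held no summit, where the upper Poisson bound is 0.893 per Mb, and only 1 relaxed peak. Transposable elements took up 4.12% of the nearest bin and 20.6% of the bin of 20 to 50 kb, and soft-masked repeats 20.4% and 36.7%, and their part in the fall was not tested. With the bases and summits of annotated transposable elements left out, but not those of other soft-masked repeats, the density ran from 58.1 to 8.71 per Mb over the same bins. Within gaps of at most 50 kb it ran from 57.2 to 8.24 per Mb, the last from 6 summits; replicate 1 alone gave 5.49 per Mb there, from 4 summits, and replicate 2 alone 13.7, from 10. The density of pooled relaxed intergenic peaks fell too, from 291 per Mb in the nearest bin to 63.9 at 20 to 50 kb, so the fall is not particular to reproducible summits. The share of relaxed intergenic peaks in the IDR list was 19.4% in the nearest bin and 10.8% at 20 to 50 kb.

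**Figure D3:**
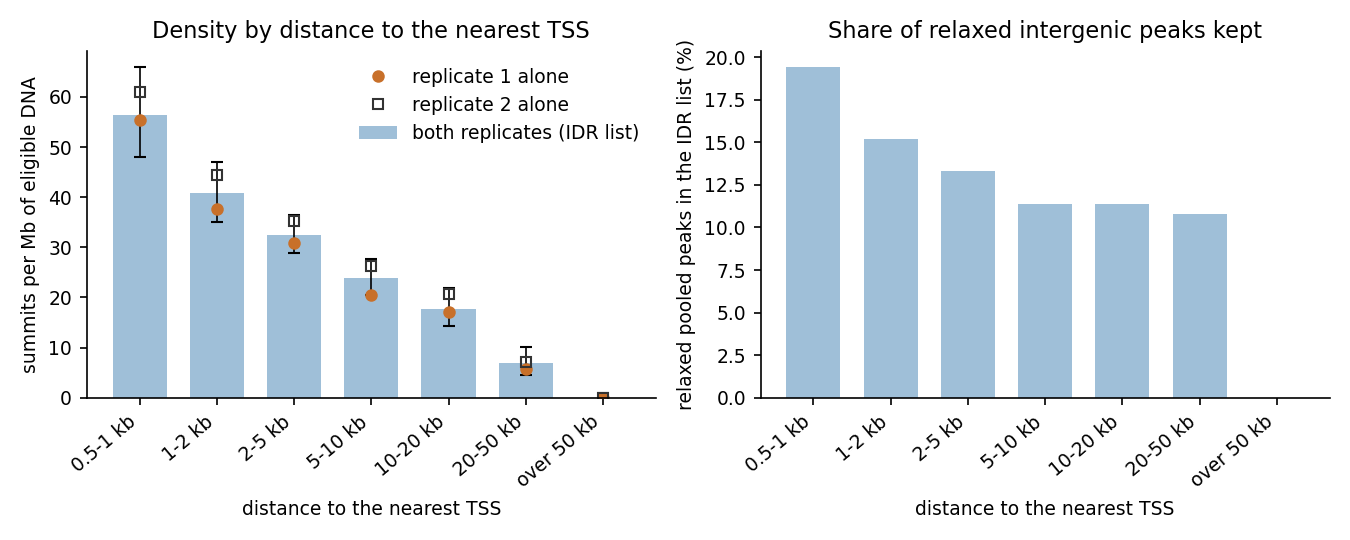
Left, intergenic summits per Mb of eligible DNA by distance to the nearest TSS, with exact Poisson 95% intervals on the bars and the density from each replicate alone as points; all 3 fall from bin to bin. Right, the percentage of pooled relaxed intergenic peaks in the IDR list, from 19.4% at 0.5 to 1 kb to 10.8% at 20 to 50 kb.

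How the flanking genes were turned went with smaller differences. Gaps between divergent genes held 33.4 summits per Mb (29.4 to 37.9), those between genes in tandem 25.7 (23.5 to 28.2) and those between convergent genes 22.0 (19.1 to 25.3). The order was the same in replicate 1 alone, at 31.8, 23.8 and 20.5 per Mb, and in replicate 2 alone, at 37.8, 27.5 and 24.5. Pooled relaxed peaks had it too, at 237, 187 and 172 per Mb, and 14.1%, 13.8% and 12.8% of them were in the IDR list. The order is thus not particular to the reproducible summits. Divergent genes face their gap with a 5′ end on both sides and convergent genes on neither. These densities were not split by distance to the TSS, so the part of that distance in their order was not tested. Where the nearer flanking gene, by its edge, faced the summit with its 5′ end, the density was 27.3 per Mb, and where it faced with its 3′ end, 23.7. That order held in 3 of the 6 distance bins with summits and was the other way from 2 to 20 kb, at 30.4 against 34.3 per Mb between 2 and 5 kb, 22.8 against 24.6 between 5 and 10 kb and 11.4 against 22.2 between 10 and 20 kb. By chromosome, 2L held 31.3 per Mb, 3L 30.3, 3R 26.0, X 19.4 and 2R 18.0, and chromosome 4 held 5 summits. Replicate 1 and replicate 2 alone kept X and 2R below the other large arms, at 18.9 and 15.7 per Mb, and at 21.2 and 19.3. Pooled relaxed peaks were also sparser on X and 2R, at 152 and 144 per Mb, than on 2L, 3L and 3R, at 217, 215 and 194. Of them 12.8%, 12.5%, 14.4%, 14.1% and 13.4% were in the IDR list, in that order. The 11 gaps over 200 kb, which held no summit, lay on 2R, X, 3L and 3R and not on 2L. Densities by chromosome were not taken without long empty gaps, so the part of these gaps in the order of the arms was not tested.

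Intergenic summits were scarce in annotated transposable elements. These make up 10.9% of the eligible DNA and held 2 summits, or 0.508 per Mb (0.0615 to 1.84), against 28.4 per Mb outside them. One was in a copy of INE-1 0.706 kb before ed, a cell adhesion gene, on 2L at 4030671 with a signal of 463.3. The other was in a copy of HB 0.736 kb before del, a gene of piRNA cluster transcription, on 2L at 21149282 with a signal of 154.1. How reads with several places in the genome were treated is not given in the sources used here, and its part in this scarcity was not tested.

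Of 6528 gaps with eligible DNA, 596 or 9.13% held an intergenic summit. In 411 it was alone, while 185 gaps held 2 or more and with them 510 of the summits, or 55.4%. Another intergenic summit lay within 1 kb of 16.4% and within 5 kb of 46.4%. The median length of the gap around a summit was 10.28 kb. The very longest gaps were nearly empty: 5 of the 50 longest held any, 25 summits in 7.62 Mb.

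**Figure D4:**
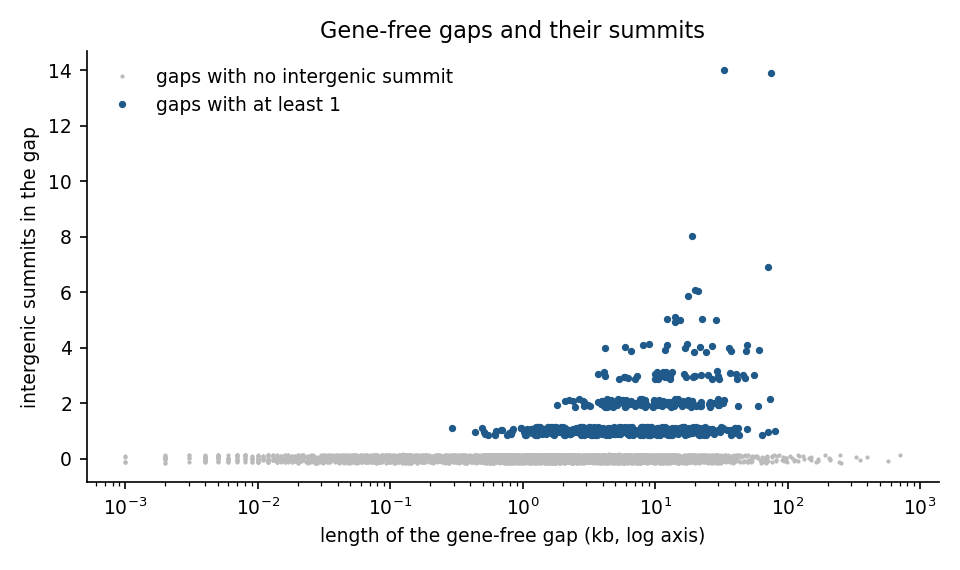
Intergenic summits in each gene-free gap with eligible DNA against the length of the gap (log axis), with points spread a little vertically. The 2 gaps with 14 summits are 32.96 and 75.05 kb long, and the 11 gaps over 200 kb hold none.

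Of the 13 gaps with 5 or more summits, the first 10 are described here, in which ties at 5 summits were broken by the signal of the strongest, and 8 of the 10 were on 3L. A gap of 32.96 kb on 3L between tRNA:Ile-TAT-1-2 and CG13898 held 14, with signals from 130.1 to 650.2, and 13 of them had a peak in both replicates. The gap on the other side of that pair of tRNA genes, between hng3 and tRNA:Ile-TAT-1-1, held 5, but 3 by replicate 1 alone and 6 by replicate 2 alone. The gap between lncRNA:CR45411 and lncRNA:CR43785 left of hng3 held 5, in each replicate alone too. The 3 gaps lie on either side of hng3 and of emc, which lies inside it and encodes a helix-loop-helix inhibitor of proneural factors. Together this stretch of 88.9 kb, chosen after its counts were seen, held 24 intergenic summits, or 355 per Mb of its eligible DNA. Replicate 1 alone put 22 there and replicate 2 alone 25.

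The gap of 75.05 kb between NijA, an adhesion protein gene of the ninjurin family, and CG43245 on 3L also held 14, with signals from 165.8 to 610.4. All 14 lay in its right part, from 10734705 to 10769807, and they include 4 of the 5 summits farthest from any TSS, at 37.22, 36.66, 35.17 and 34.55 kb. Their signals were 199.8, 196.1, 165.8 and 233.9. The fifth, 33.89 kb from a TSS with a signal of 341.3, was in the gap of 70.51 kb beside vvl, a POU homeodomain gene of tracheal and neural development, which held 7. That gap is the one of the 10 in which the replicates were farthest apart, with 3 summits from replicate 1 alone and 7 from replicate 2 alone.

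A further 3 of the 10 gaps lie in one stretch of 3L. The gap between lncRNA:CR44363 and CG7560 held 8, that between scyl, a growth regulator of the TOR pathway, and lncRNA:CR44720 held 6, and that between lncRNA:CR45251 and CG6163 held 5. From 11256173 to 11425157, a stretch of 169 kb also chosen after its counts were seen, there were 33 intergenic summits, 35 by replicate 1 alone and 38 by replicate 2 alone. The remaining gaps lay between lncRNA:CR44603 and lncRNA:CR45695 near chinmo on 2L and between 18w, a Toll family receptor gene, and lncRNA:CR44634 on 2R, with 6 summits each. Replicate 1 alone put 6 in each of them, and replicate 2 alone put 3 near chinmo and 4 beside 18w. Of all 10, the strongest single summit was that near chinmo, with a signal of 1144.9.

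The genes beside intergenic summits were protein coding in 66.5% of the 1842 flanks and noncoding RNA genes in 31.1%, and tRNA genes took 2.01%. Flanks are counted once per summit. Counted once each, 7715 of the 9403 genes beside eligible DNA were protein coding and 1393 were long noncoding RNA genes. The median eligible DNA beside a long noncoding RNA gene was 6.21 kb, against 1.53 kb over all genes, so these genes have more room for a summit. Of the 9403 genes that flank eligible DNA, 1118 or 11.9% had an intergenic summit in an adjoining gap, and among protein-coding genes 785 of 7715 or 10.2%. Of 1104 different genes nearest on either side, 203 or 18.4% had a promoter peak of their own, against 13.1% of all genes. Among protein-coding genes the difference was smaller, at 144 of 775 or 18.6% against 14.9%. The shares of all genes include genes beside no eligible DNA, and the share among only the genes that flank it was not counted. At 67.3% of the summits neither flanking gene had one.

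Gene lists are given against those shares, but genes with more DNA beside them have more room for a summit. The median eligible DNA beside a gene was 1.53 kb over all genes and 13.8 kb for homeobox genes outside the Hox complexes. For that reason the number of summits per Mb of adjoining eligible DNA is given too, which was 26.0 over all genes. That mean covers gaps over 50 kb, which held 3.77 summits per Mb, where gaps of 10 to 20 kb held 30.8. The lists were not compared within gaps of like length, so the part of gap length in their densities was not tested. A gap between 2 listed genes counts for both. Replicate counts are of genes with a summit among as many of the strongest peaks of that replicate.

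Among patterning genes, summits adjoined 6 of 12 maternal and gap genes (38.2 summits per Mb), 3 of 9 pair-rule genes (29.2) and 8 of 15 segment polarity genes (36.9), where replicate 1 alone gave 5, 3 and 8 and replicate 2 alone 6, 3 and 8. Wilson intervals on these shares were 25.4 to 74.6%, 12.1 to 64.6% and 30.1 to 75.2%, in that order. The strongest summit of all 3 lists was that between slp1 and slp2. Members also included hb, bcd, kni and tll among gap and maternal genes, opa and odd among pair-rule genes and wg, ptc and en among segment polarity genes. Of 67 homeobox genes outside the Hox complexes 28 had a summit (41.8%, interval 30.7 to 53.7%; 32.7 per Mb), led by C15 and zfh2, with 27 from each replicate alone. None of the 8 Hox genes had one in their 0.0546 Mb, where the upper Poisson bound is 67.6 per Mb. A difference from the 26.0 per Mb of all genes was thus not detectable there.

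Among regulators of tissues, 10 of 24 muscle genes had a summit (41.7%, interval 24.5 to 61.2%; 55.9 per Mb), led by mid, a T-box gene, at a signal of 470.7, and including twi, bin and Doc2. The Notch pathway and Enhancer of split list had 3 of 17, with 8 summits, or 130 per Mb, led by E(spl)malpha-BFM at a signal of 504.6 and including the ligand gene Ser and fng, whose product glycosylates Notch. Dorsoventral genes had 3 of 12, with 7 summits (71.2 per Mb), led by sog, which encodes a BMP antagonist, at 230.5. Genes of neural fate had 6 of 26 (35.6 per Mb), led by SoxN, an HMG box gene, at 774.3, and tracheal genes 3 of 9 (43.8 per Mb), led by vvl at 341.3. GATA and blood genes had 2 of 13 (26.0 per Mb), led by the GATA factor gene srp at 294.8.

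Genes of signalling ligands had a summit in 9 of 26 (47.3 per Mb), led by upd2, a JAK/STAT ligand gene, at a signal of 506.8. Axon guidance and adhesion genes had 7 of 41 (27.5 per Mb), led by comm2 at 519.2, with 6 from replicate 1 alone and 11 from replicate 2 alone. Nuclear receptor genes had 4 of 18 (26.9 per Mb), led by kni at 268.5, with 2 and 5. Of 8 architectural protein genes 1 had a summit (31.7 per Mb), the insulator protein gene mod(mdg4), at 535.4. Wilson intervals were 8.53 to 31.3% for axon guidance and adhesion, 9.0 to 45.2% for nuclear receptor and 2.24 to 47.1% for architectural genes. All of these include the 11.9% of all genes, and that of signalling ligands, 19.4 to 53.8%, does not.

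For genes of general or terminal functions the shares were small, with Wilson intervals that include the 10.2% of all protein-coding genes. Of 49 ribosomal protein genes 3 or 6.12% had a summit (2.10 to 16.5%; 8.69 per Mb), led by RpS7 at 393.4. Of 115 chemoreceptor genes 9 or 7.83% had one (4.17 to 14.2%; 16.2 per Mb), led by the gustatory receptor gene Gr89a at 464.7, and of 103 cuticle protein genes 8 or 7.77% (3.99 to 14.6%; 27.5 per Mb), led by Cpr76Ba at 464.6.

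Among noncoding genes, summits adjoined 308 of 1393 long noncoding RNA genes (34.0 per Mb), led by lncRNA:CR44149, and 15 of 84 tRNA genes (61.8 per Mb), led by tRNA:Ser-GCT-2-2 at a signal of 910.2. Of the 36 different summits beside tRNA genes, 19 lay in the gaps beside tRNA:Ile-TAT-1-1 and tRNA:Ile-TAT-1-2 described above. Of 25 microRNA precursor genes 3 had one (8.52 per Mb), led by mir-4981 at 665.7, whose summit on 2R holds a CTCF core. None of 5 small nucleolar RNA genes had one in 0.0204 Mb, where the upper Poisson bound is 180 per Mb.

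The windows of 50 bp to either side of the intergenic summits were 65.5% ± 8.90 (SD, n = 921 summits) A+T, and those of other IDR summits 64.5% ± 9.31 (n = 5000). Relaxed intergenic peaks outside the IDR list came to 59.0% ± 9.80 (n = 5835), close to the 59.2% of all eligible DNA. Unbroken stretches of 8 or more A or T bases, marked where present in the sequences printed for the strongest summits, were in 73.1% of the intergenic windows, in 70.5% of the other IDR windows and in 56.6% of tiles of the same length that cover all eligible DNA. A+T content did not order the summits by strength: it was 65.5% in the 231 strongest and 65.3% in the 230 weakest. It was highest at the summit itself, 66.1% in the first 20 bp to its right, and fell below the level of eligible DNA farther out, to 55.3% between 200 and 220 bp. Low points of 55.0% or less were reached 260 to 280 bp to the left and 320 to 340 bp to the right, where other IDR summits had 56.8% and 56.7%.

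**Figure D5:**
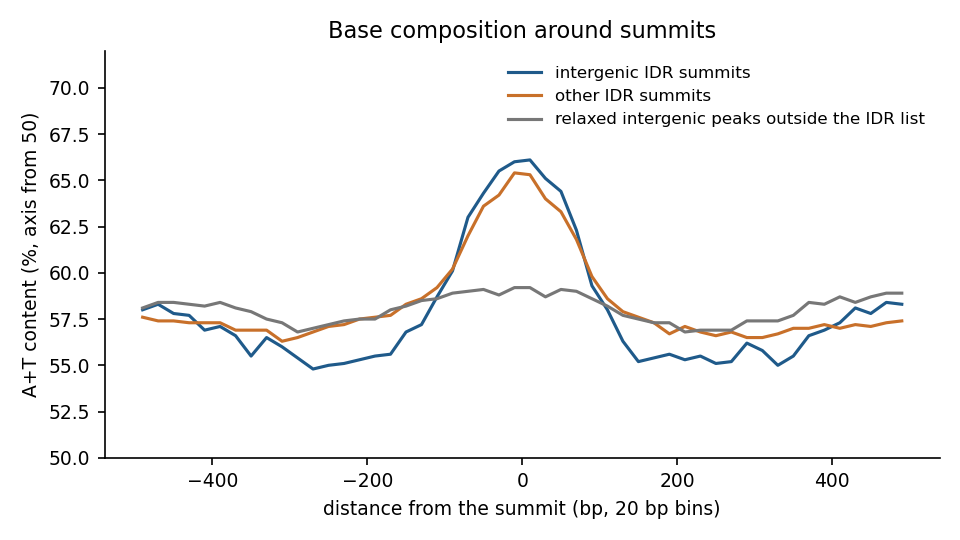
A+T content in 20 bp bins against the distance from the summit for the 921 intergenic summits, the 5000 other IDR summits and the 5835 relaxed intergenic peaks outside the IDR list; the vertical axis starts at 50%. Both IDR lines peak near 66% at the summit, and the relaxed peaks stay between 56 and 60%.

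Of 17 short motifs searched on both strands of these windows, most differed little in share between intergenic and other IDR summits. GTAAACA, a core bound by forkhead proteins, was in 3.58% of the intergenic windows (2.56 to 4.99), 5.90% of windows within 500 bp of a TSS and 7.93% of those in genes. Among relaxed intergenic peaks outside the IDR list it was in 2.57%, and among all tiles of eligible DNA in 1.86%. The promoter elements TATCGATA (DRE) and GGTCACACT (Motif 1) were each in 2 intergenic windows, or 0.217%, against 1.95% and 0.683% within 500 bp of a TSS and 0.216% and 0.0444% of the tiles. The windows are counted as they are, so the sets also differ in A+T content.

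The CTCF core was in 1.30% of the intergenic windows (0.747 to 2.26), in 1.04% of other IDR windows, in 1.25% of the relaxed intergenic peaks and in 0.618% of tiles. Its centre lay to the left of the summit in 11 of the 12, and 9 of the 12 read as the core on the minus strand. Side and strand were not counted at the 52 other IDR windows and 73 relaxed intergenic windows with the core. Neither count is thus shown to be particular to intergenic summits. Its 12 holders ran over much of the range of signal. After the jp summit they were, in order of signal, beside Psc on 2R (722.8), beside mir-4981 on 2R (665.7), beside cv-c, a RhoGAP gene, on 3R (341.7), beside lncRNA:cherub on 3R (305.0) and beside bark on 2L (288.8). The rest lay beside tRNA:Arg-CCT-1-2 on 2R (273.1), ImpL2, a gene of an insulin-binding protein, on 3L (206.5), CG6163 on 3L (148.0), CG43168 on 3L (139.2), Ugt301D1 on 2L (137.2) and sbr, an mRNA export gene, on X (134.9). Of the 12, 11 had a peak in both replicates, and the Psc summit had none in replicate 1 within 100 bp and ranked 440 in replicate 2. The Su(Hw) core GCATACTT was in 0.869% (0.441 to 1.7) against 0.482% of tiles, 0.68% of other IDR windows and 0.703% of the relaxed intergenic peaks. GAGAGAG, bound by GAGA factor, was in 1.19% (0.668 to 2.13) against 1.10% of tiles, 1.86% of other IDR windows and 1.41% of the relaxed intergenic peaks.

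The 6-mer ACAGTG was in 6.08% of the intergenic windows and 3.54% of the tiles. In the zone of 50 to 125 bp on either side it ran 5′ to 3′ toward the summit in 99 cases and away from it in 44. The counts were 624 and 241 at other IDR summits, and 252 and 185 at relaxed intergenic peaks outside the IDR list. The sequence and the zone were chosen on the whole list of these data, so the counts are a description and not independent support. TAATTA, the homeodomain core, was in 8.79% against 7.41% of tiles and in 8.10% of the other IDR windows. CAGGTAG, bound by the early activator Zelda, was in 5 windows, or 0.543% against 0.435%, and the Grainyhead site AACCGGTT was in 0.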

How the data were processed

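ATbp binding was measured by ChIP-seq of embryos in 2 replicates of 1 group. The authors deposited lists of peaks. Per the labels and the readme files, relaxed lists came from each replicate's alignment with a control alignment and from both pooled, and the IDR list from these. The signal value of each peak is the authors', as deposited, and was used only to rank and describe peaks within a list. The sources used here name no aligner, peak caller or threshold, and depth is unknown. The unit of the deposited score column was not needed.

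Summits (1-based, dm6) were placed on Ensembl release 115 genes (annotation 6.54), transposable elements apart, and on the RefSeq sequence of the same assembly, whose chromosome lengths were compared first. A gap is the DNA between neighbouring genes of the 6 main chromosomes, and eligible DNA is its part over 500 bp from every TSS. Replicates alone were represented by as many of their strongest peaks as the IDR list holds, and peaks within 100 bp counted as shared. Shares carry Wilson and densities exact Poisson 95% intervals.

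No test was run, since there is 1 group and summits are not replicates. The members, 22 gene lists, 17 motifs and rules were chosen with earlier results of these data known. Named are the 12 strongest summits, the 10 fullest gaps, the 5 farthest from a TSS, all with a CTCF core, the 5 with the largest rank difference, the leading gene of each list and 3 summits on either side of the margin; other named genes were chosen after their values were seen. The placement of summits was tested on simulated data. Alternatives changed the margin, annotation, window, peak set, replicate and sharing distance. Python 3.11.15, NumPy 2.4.6, SciPy 1.17.1, pandas 2.3.3 and Matplotlib 3.10.9 were used.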

Additional observations from a re-analysis of the deposited data

How the results depend on the processing

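The number of intergenic summits kept within 1.5 times of 921 except at a margin of 2000 bp (576) and in the stronger 0.5 of the IDR list by signal (419), which has fewer peaks by construction. Their share was 12.85% at a margin of 1000 bp, 9.728% at 2000 bp, 19.07% with protein-coding genes alone and 14.16% in the stronger peaks. Median TSS distance was 3.739, 4.922, 4.442 and 2.521 kb in that order, and 2.628 kb with transposable elements as genes. The share over 10 kb from a TSS, 12.38%, became 14.98%, 19.79% and 24.98% under the first 3, and 9.713% with transposable elements as genes. The share of nearer flanks facing with a 5′ end, 50.81%, became 46.78% at 1000 bp, 42.01% at 2000 bp and 55.18% with protein-coding genes alone. Divergent gaps held 22.05% at 2000 bp and 32.86% with protein-coding genes alone; convergent gaps held 25.49% and 29.69% at the wider margins and 18.33% with protein-coding genes alone. A+T was 63.6% within 100 bp either side. A/T runs were in 69.45% in the stronger peaks, and in 48.64% and 89.47% of windows of 25 and 100 bp either side, which are shorter and longer. Flanking genes with a summit were 13.48% at 2000 bp, 13.61% of protein-coding genes, 10.51% with transposable elements as genes and 6.519% in the stronger peaks, whose density was 11.55 per Mb. A peak in both replicates was found for 77.09% within 50 bp, 98.48% within 200 bp, and 96.66% in the stronger peaks. Of the 15000 strongest pooled relaxed peaks, 31.82% of those between genes were in the IDR list.

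Leaving out a replicate gave 859 and 1009 summits, shares of 14.51% to 17.04%, median distances of 2.737 to 3.073 kb, 12.46% to 12.69% over 10 kb, 49.94% to 51.73% facing with a 5′ end, 27.36% to 27.65% in divergent and 22.24% to 22.6% in convergent gaps, A+T of 64.15% to 65.45%, A/T runs in 68.68% to 72.94%, 11.27% to 12.7% of flanking genes and 23.69 to 27.82 per Mb. The ratio of density at 0.5 to 1 kb over that at 20 to 50 kb, 8.15, was 6.94 in gaps of at most 50 kb (4.52 to 10.2 by single replicate, the lower from replicate 2), 6.67 without transposable elements, and 8.47 to 9.52 by single replicate, all chosen after seeing the data. Where causes of these shifts are not named, the cause was not tested. No paired analysis was possible because the study has 1 group.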

Other observations

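Some of the most isolated intergenic summits were of moderate strength. The one with no other IDR summit within 111.4 kb, on 2L beside Grl40a, ranked 513 among the 921. The 1 summit without a relaxed peak in either replicate within 100 bp was on 2L at 745982, between Eaat2, a glutamate transporter gene, and GABA-B-R3, a GABA receptor gene, with a signal of 133.3 near the lower limit of the list. One summit, on 2L at 15442315, was 1 bp past the end of lncRNA:CR44862.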
